A study of Mus musculus with 24 samples.

Results

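The comparison set mouse peritoneal macrophages in the M1 state against macrophages in the M2 state, both without inhibitor. It rests on 4 M1 and 4 M2 libraries, 8 of the 24 libraries of the series, taken by the column names of the deposited count table, and on all 14692 expressed genes of 54532 listed features. Per the labels, M1 cells received LPS and IFN-γ, M2 cells received IL4 and M0 cells were the control, and each of these states was also sequenced with ONX-0914, an inhibitor selective for the immunoproteasome subunit PSMB8. The labels call the 4 replicates of a group independent, and each pooled the cells of 2 to 3 mice to reach 50000 cells before polyA RNA was sequenced from both ends. The labels state neither strain, age and sex of the mice nor dose and duration.

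LPS is sensed by the receptor TLR4, which activates NF-κB and induces type I interferon, and IFN-γ signals through a receptor of its own. Together they drive the M1 state, known for inflammatory cytokines, chemokines, nitric oxide and antigen presentation. IL-4 signals through its receptor to STAT6 and drives the M2 state, known in mice for arginase, chitinase-like proteins and the mannose receptor.

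The promoters of 3 genes that were higher in M1 and of 3 that were higher in M2 are shown because each holds a short motif of one of these signalling branches, and they were chosen after their values were seen. The sequences are from RefSeq on GRCm38.p6 and run 5′ to 3′ on the strand of the gene, from 250 bases before to 50 bases after its start. Capitals mark 2 copies of GAAA with 2 bases between them, the core of the interferon response element, in Ifit3 (chr19:34583279-34583578, plus strand), Cxcl10 (chr5:92348840-92349139, minus strand) and Gbp2 (chr3:142620413-142620712, plus strand). They mark TTC and GAA with 4 bases between them, the spacing STAT6 prefers, in Pdcd1lg2 (chr19:29410669-29410968, plus strand), Retnla (chr16:48842359-48842658, plus strand) and Tmem26 (chr10:68723496-68723795, plus strand).
Ifit3: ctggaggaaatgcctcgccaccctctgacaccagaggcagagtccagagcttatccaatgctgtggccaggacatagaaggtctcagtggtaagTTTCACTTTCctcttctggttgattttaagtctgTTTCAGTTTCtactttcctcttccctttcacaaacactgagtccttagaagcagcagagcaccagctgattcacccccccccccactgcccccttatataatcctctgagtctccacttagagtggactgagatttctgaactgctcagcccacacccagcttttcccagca
Cxcl10: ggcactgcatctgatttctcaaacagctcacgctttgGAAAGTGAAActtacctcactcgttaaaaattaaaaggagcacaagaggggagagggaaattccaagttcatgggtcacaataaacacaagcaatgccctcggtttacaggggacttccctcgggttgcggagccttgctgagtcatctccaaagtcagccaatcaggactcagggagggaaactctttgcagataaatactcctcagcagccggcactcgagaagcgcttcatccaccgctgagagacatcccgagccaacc
Gbp2: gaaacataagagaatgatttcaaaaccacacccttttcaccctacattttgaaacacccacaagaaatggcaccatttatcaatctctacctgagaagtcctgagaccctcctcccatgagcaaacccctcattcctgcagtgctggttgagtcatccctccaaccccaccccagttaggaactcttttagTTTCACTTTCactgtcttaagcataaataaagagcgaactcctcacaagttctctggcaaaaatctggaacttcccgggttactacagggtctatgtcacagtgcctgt
Pdcd1lg2: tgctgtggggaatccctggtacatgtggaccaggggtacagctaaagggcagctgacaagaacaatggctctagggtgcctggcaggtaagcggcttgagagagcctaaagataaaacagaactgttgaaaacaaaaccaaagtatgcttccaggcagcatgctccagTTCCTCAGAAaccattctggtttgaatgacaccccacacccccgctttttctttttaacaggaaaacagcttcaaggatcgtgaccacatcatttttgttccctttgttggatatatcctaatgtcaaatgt
Retnla: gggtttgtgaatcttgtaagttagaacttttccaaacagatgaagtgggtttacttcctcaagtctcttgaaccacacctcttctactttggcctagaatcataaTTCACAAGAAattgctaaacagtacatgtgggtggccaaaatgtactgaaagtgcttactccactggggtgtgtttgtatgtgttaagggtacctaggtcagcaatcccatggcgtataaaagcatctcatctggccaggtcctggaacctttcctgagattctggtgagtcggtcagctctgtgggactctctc
Tmem26: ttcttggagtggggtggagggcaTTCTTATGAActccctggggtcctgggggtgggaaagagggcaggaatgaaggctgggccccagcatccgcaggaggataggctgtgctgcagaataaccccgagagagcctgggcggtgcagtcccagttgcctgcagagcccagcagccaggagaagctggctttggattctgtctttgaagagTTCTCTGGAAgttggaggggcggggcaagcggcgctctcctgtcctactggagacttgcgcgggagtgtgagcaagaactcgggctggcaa

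A window of this kind was at hand for 10483 of the 14692 genes, and each motif was searched on both strands, with overlapping matches allowed. The interferon response core was in 14.6% of the 643 windows of genes higher in M1 by a log2 difference of at least 2, in 2.02% of the 495 windows of genes higher in M2 by as much, and in 3.25% of all windows. The STAT6 spacing was in 8.24% of the windows of M1 genes, in 8.28% of those of M2 genes and in 5.52% of all. The kappa B letters, GGGA and TTTCC with C or A between them, were in 1.09% of the windows of M1 genes, 0.202% of those of M2 genes and 0.305% of all. Of these motifs, the interferon core had the widest gap between the windows of M1 genes and all windows, while the STAT6 spacing had nearly the same share on both sides. In a 200-base window the STAT6 spacing was in 4.2% of the windows of M1 genes, 6.06% of those of M2 genes and 3.42% of all. A match describes letters and is not a measured binding site.

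The libraries held 18230924 to 20958871 counts in M1 and 19066090 to 21486705 in M2. Macrophage genes were present on both sides: the summed level of a list of 15 pan-macrophage genes was 27796 to 33223 CPM in M1 and 29255 to 31941 CPM in M2, where CPM is the count per 1000000 counts after TMM scaling, edgeR's correction for libraries in which a few genes take many reads. One library, M1 replicate 2, differed from the rest of its group. Its mitochondrial genes took 0.2997% of counts, against 1.069% to 1.143% in the other 3, and its correlation of log2 CPM with them was 0.976 to 0.9786, against 0.9907 to 0.9911 among them. Of the 14692 genes, 6287 had a level in M1 replicate 2 that lay beyond the range of the other 3 by more than that range, against 1046 to 1128 genes for each of the others. The counts of genes called, the lists, the runs of neighbouring genes and the comparison with ONX-0914 were therefore made with it and without it. In these bulk samples, fewer cells of a type and less RNA per cell cannot be told apart.

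M1 and M2 macrophages differed in most of what they expressed. With edgeR's quasi-likelihood test at a Benjamini-Hochberg adjusted p under 0.05, 4730 genes (32.2%) were higher in M1 and 5052 (34.4%) were higher in M2, together 66.6% of the genes tested. The 4 libraries of one state all lay above the 4 of the other for 8346 genes (56.8%), with M1 above in 4035 (27.5%) and M2 above in 4311 (29.3%). Genes called higher or lower below passed this test. Counts of list members below are to be read beside these shares. A list split near 32.2% and 34.4% differs little from all genes, and groups without overlap are common among all genes. Without M1 replicate 2, 4831 genes were higher in M1 and 5160 in M2. Of the 9782 calls, 9262 remained on the same side and none was on the other.

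The sides were close in number but not in size. Beyond a log2 difference of 2 lay 954 genes (6.49%) higher in M1 and 695 (4.73%) higher in M2. Fitted differences of genes with no count on one side, such as the chemokine gene Cxcl9 and the chitinase-like gene Chil4, depend on the prior count of the fit, and for these a bound is given below. Genes higher in M1 by a log2 difference of at least 2 took 17.9% to 19.1% of all counts in M1 libraries and 2% to 2.03% in M2 libraries. Those higher in M2 took 0.358% to 0.395% in M1 libraries and 3.63% to 3.75% in M2 libraries. This uneven load bears on the scaling: with total counts only, the median difference of all genes moved by -0.364, and 2850 genes were higher in M1 and 8221 in M2. The scaling reported here set that median at -0.04. Differences below about that shift depend on it, and those of the genes named below were mostly far larger.

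**Figure D1:**
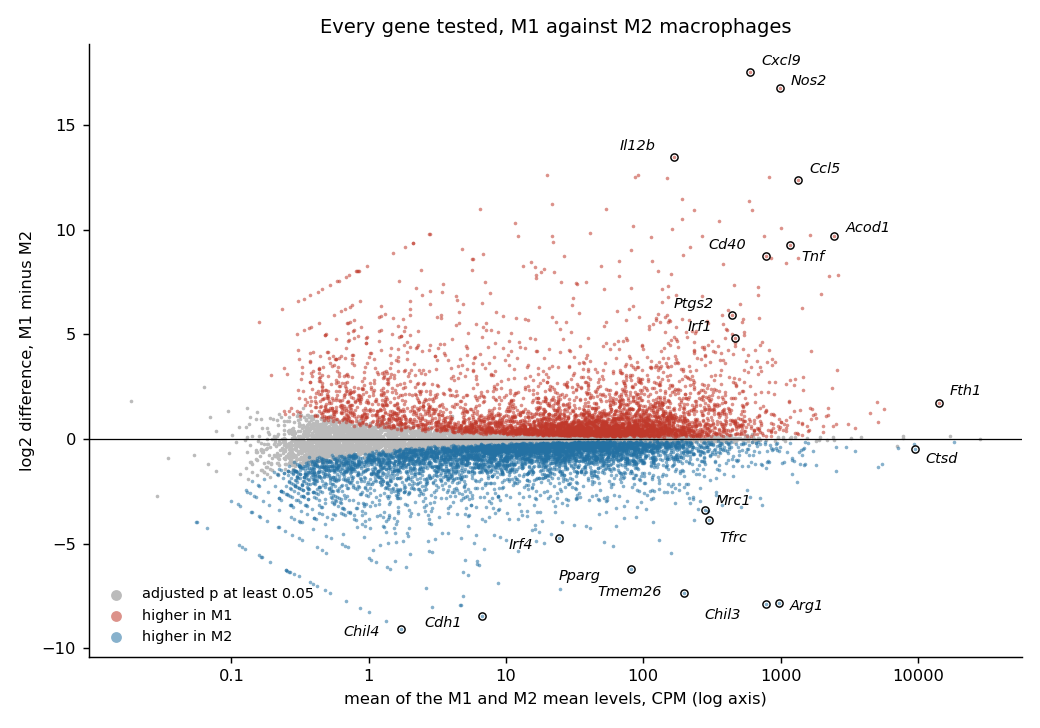
Each point is 1 of the 14692 genes tested, with the mean of its M1 and M2 mean levels in CPM on a log axis across (0.01 CPM added) and its log2 difference, M1 minus M2, upward. Red points were higher in M1 and blue points higher in M2 at an adjusted p under 0.05, and more genes lie beyond a difference of 2 on the M1 side (954) than on the M2 side (695). The fitted values of genes with no count on one side depend on the prior count.

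Inflammatory cytokine genes were nearly all on the M1 side. Of 19 tested, 18 were higher in M1, with a median log2 difference of 5.56 against -0.04 over all genes. Tnf, the gene of the tumour necrosis factor TNF, had 2314, 2506, 2310.2 and 2294 CPM in M1, against 3.21, 4.2, 3.77 and 4.29 CPM in M2. The groups lay far apart, and the spread within each was small (log2 difference 9.25 ± 0.12, SE). Il12b, which encodes the p40 chain shared by IL-12 and IL-23, had 375, 287, 367 and 303 CPM in M1, while M2 held 2 counts in all, both in replicate 3. Its ratio of M1 to M2 was 14313 (95% interval 3962 to 118198). Il1b, the interleukin 1β gene, had 36.2, 53.6, 38.2 and 44.1 CPM in M1 and a single count in M2, in replicate 3, a ratio of 3657 (95% interval 656 to 144492). Without M2 replicate 3, no count of Il12b or Il1b was left in M2, and the fitted log2 differences were 15.67 for Il12b and 12.71 for Il1b. Il6 had 124, 47.5, 99 and 125 CPM in M1, against 0.0917, 0.5, 0.217 and 0.482 CPM in M2, and its low M1 library was replicate 2. Il27 averaged 323 ± 12 CPM in M1 and 0.3 ± 0.144 CPM in M2 (SD, n = 4 each, as for all means that follow). The exception was Il10, whose product restrains macrophage activation: it had 0.955, 0.554, 0.289 and 0.755 CPM in M1, against 4.04, 4.8, 4.68 and 4.58 CPM in M2, higher in every M2 library than in any M1 library (log2 difference -2.82 ± 0.23, SE).

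Nitric oxide synthase and arginase, which compete for arginine, lay on opposite sides. Nos2, which makes nitric oxide from arginine, had 1799.7, 2071, 2376 and 1668 CPM in M1, 125821 counts in all, and 1 count in M2. Its ratio of M1 to M2 was 170035 (95% interval 30517 to 6716059.6), and without M2 replicate 1, which held that count, the fitted log2 difference was 18.24, a value that then depends on the prior count of the fit. Arg1, which splits the same substrate into ornithine and urea, had 8.21, 9, 9.64 and 7.43 CPM in M1, against 1775, 2133, 2006 and 1873 CPM in M2. That was a log2 difference of -7.82 ± 0.13 (SE), and M0 lay between the states at 72.5 ± 6.87 CPM. Gch1, which makes the cofactor of nitric oxide synthase, averaged 349.8 ± 35.3 CPM in M1 and 37.3 ± 0.937 CPM in M2. Ass1, which rebuilds arginine from citrulline, averaged 72.3 ± 5.47 CPM in M1 and 9.98 ± 0.531 CPM in M2. Polyamine genes lay on both sides. Lower in M1 were Amd1, which supplies the aminopropyl donor, at 39.2 ± 7.78 CPM in M1 and 70.9 ± 4.33 CPM in M2, and Sat1, which acetylates polyamines, at 149 ± 10.7 CPM in M1 and 291 ± 5.11 CPM in M2. Higher in M1 were Odc1, the ornithine decarboxylase, at 114 ± 10.8 CPM in M1 and 87.7 ± 2.37 CPM in M2, and the spermine synthase Sms, at 47.7 ± 4.34 CPM in M1 and 35.5 ± 1.14 CPM in M2, though with total counts only their log2 differences of 0.38 for Odc1 and 0.43 for Sms were 0.01 and 0.06 and did not pass the test. In the whole list of 16 genes, 7 were higher in M1 and 7 in M2, or 5 and 9 with total counts only. Acod1, which makes itaconate from a cycle intermediate, had 4910.3, 5151, 4957 and 4718 CPM in M1, against 5.78, 7.15, 5.55 and 5.11 CPM in M2. No M1 library came near the M2 range.

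**Figure D2:**
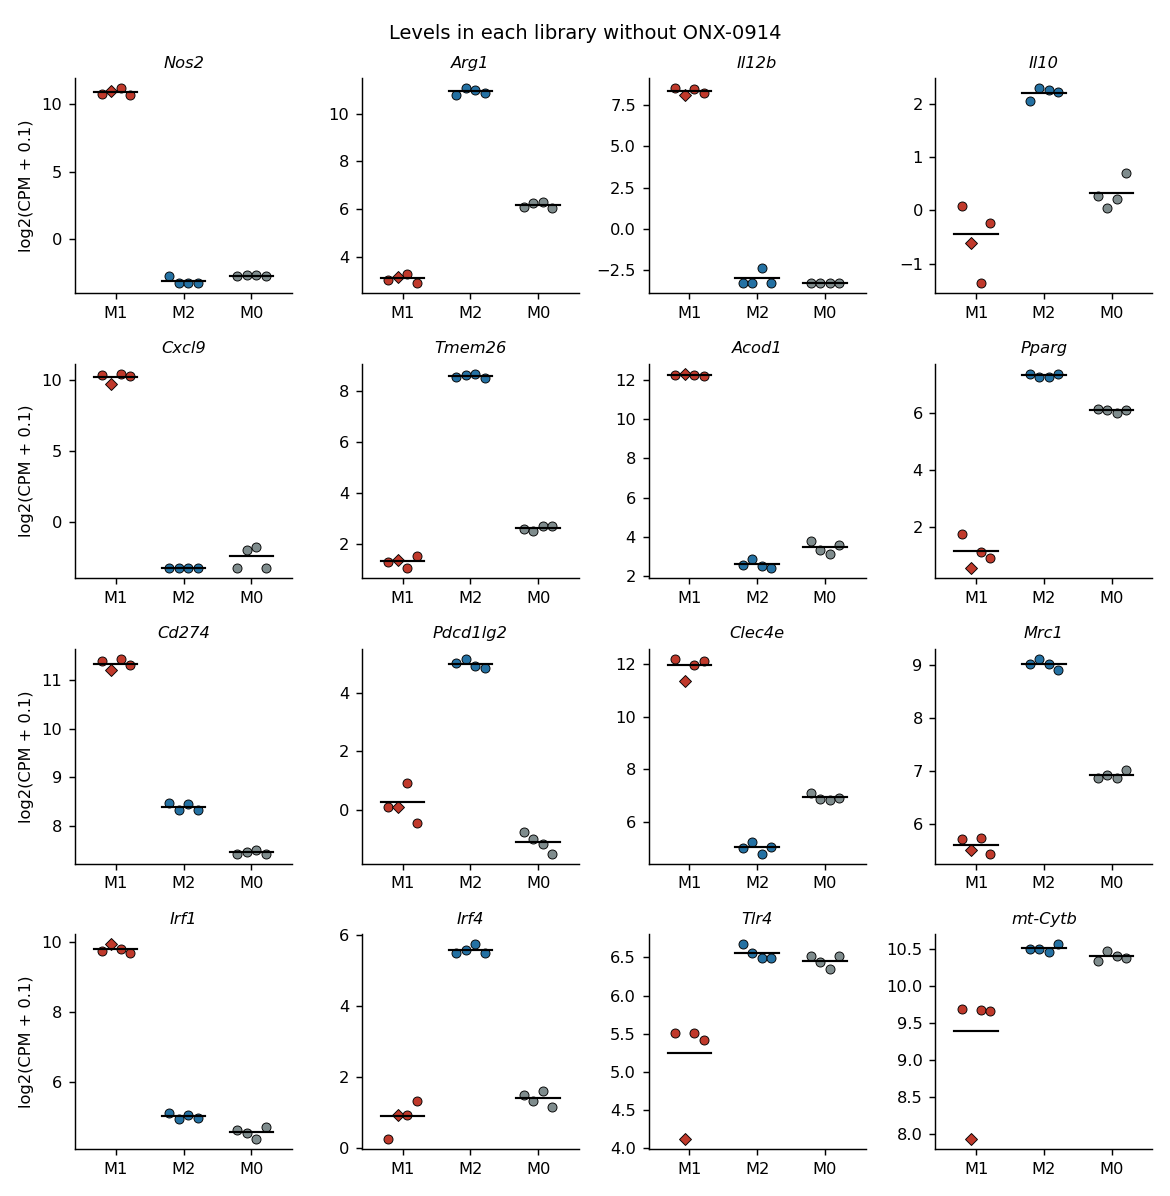
Levels of 16 genes as log2(CPM + 0.1), with 1 point per library and replicates 1 to 4 from left to right, for M1, M2 and M0, and the group mean as a line. M1 replicate 2 is drawn as a diamond. Nos2, Il12b, Cxcl9, Acod1, Cd274, Clec4e and Irf1 were high in M1, Arg1, Il10, Tmem26, Pparg, Pdcd1lg2, Mrc1, Irf4, Tlr4 and mt-Cytb were high in M2, and M1 replicate 2 lay far below the other M1 libraries for Tlr4 and mt-Cytb.

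Chemokine genes of both large families lay more often on the M1 side. Of 12 CXC chemokine genes, 9 were higher in M1 and 2 in M2, with a median log2 difference of 5.33. Of 15 CC chemokine genes, 10 were higher in M1 and 4 in M2, with a median of 2.72. The ligands of CXCR3, which draws T cells, were close to absent in M2. Cxcl9 had 1293, 853, 1422 and 1242 CPM in M1 and no count in any M2 library, so that it was at least 34678-fold higher in M1 against 3 counts over the M2 group. For Cxcl11, with 37.5, 32.9, 44 and 43.6 CPM in M1 and none in M2, the bound was 1134-fold. Cxcl10 had 1454, 1935, 1628 and 1616 CPM in M1, against 0.138, 0.2, 0.347 and 0.434 CPM in M2. Its promoter, printed above, holds the interferon core. Ccl5 had 2308, 3824, 2309 and 2364 CPM in M1, against 0.413, 0.7, 0.477 and 0.434 CPM in M2, with M1 replicate 2 above the other 3. Ccl3 averaged 439 ± 55.5 CPM in M1 and 12.4 ± 0.842 CPM in M2. On the M2 side stood the eosinophil attractants Ccl11, at 0.28 ± 0.138 CPM in M1 and 2.51 ± 0.257 CPM in M2, and Ccl24, at 0.373 ± 0.228 CPM in M1 and 1.67 ± 0.222 CPM in M2, and the homeostatic chemokine Cxcl12, at 14.1 ± 1.47 CPM in M1 and 44.1 ± 2.92 CPM in M2. For these 3 genes, too, the groups did not overlap, as for 56.8% of all genes tested.

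Receptors for chemoattractants did not follow one side: 7 of 17 were higher in M1 and 8 in M2. Over all genes the shares were 32.2% and 34.4%. The formyl peptide receptors, which sense bacterial peptides, were on the M1 side, with Fpr2 at 107, 106, 101 and 111 CPM in M1, against 0.0459, 0.1, 0 and 0.0482 CPM in M2. Fpr1 had 22.4, 23.3, 21.7 and 25 CPM in M1 and 1 count in M2, in replicate 3, a ratio of 1974 (95% interval 354 to 78037). Without that library its fitted log2 difference was 11.82. Ccrl2, a receptor that presents chemerin, averaged 1093 ± 63.7 CPM in M1 and 67 ± 3 CPM in M2. Cxcr4, the receptor of the Cxcl12 product, had 4.08, 2.84, 4.33 and 5.04 CPM in M1, against 81.6, 77.8, 71.7 and 78.7 CPM in M2, so that this ligand and its receptor were both lower in M1 than in M2.

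Interferon-stimulated genes lay on the M1 side without an exception among those tested. All 33 tested genes of a type I interferon list and all 21 tested guanylate-binding proteins and immunity-related GTPases were higher in M1, against 32.2% of all genes. Their medians were 6.34 and 6.18. All of these genes were also higher in M1 under each of the 17 alternatives run. Ifit3, an RNA-response protein gene whose promoter above holds 2 interferon cores, had 1097, 1318, 1053 and 1219.7 CPM in M1, against 0.0917, 0.65, 0.607 and 0.386 CPM in M2. Reads of Ifit3 and its near copy Ifit3b may be split between them by the counting. Rsad2, the antiviral enzyme viperin, had 5336, 4498, 5592 and 5338 CPM in M1, against 26.1, 20.8, 23.3 and 21.6 CPM in M2. Ifi44 averaged 299.6 ± 68.2 CPM in M1 and 0.0458 ± 0.053 CPM in M2. Gbp5 and Gbp2 encode GTPases that act on the membranes of intracellular microbes. Gbp5 had 2121, 1841, 2065 and 2030.1 CPM in M1, against 1.74, 1.9, 2.25 and 1.59 CPM in M2, and Gbp2 averaged 4513 ± 185 CPM in M1 and 20.8 ± 1.58 CPM in M2, with its near copy Gbp2b as a possible source of shared reads. M2 libraries held no count of Gbp10, and its M1 levels of 11.8, 11, 17.4 and 11.4 CPM put it at least 373-fold higher in M1. Ifi213, a member of the DNA-sensing Ifi200 family, averaged 382 ± 90.2 CPM in M1 and 0.129 ± 0.0459 CPM in M2.

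Genes of interferon regulatory factors and of JAK-STAT signalling were mostly, but not all, higher in M1. Of 8 interferon regulatory factors, 6 were higher in M1 and 1 in M2, or 6 and 2 with total counts only. Irf1, a factor induced by interferon, had 869.9, 989, 900.1 and 825 CPM in M1, against 34.4, 30.1, 32.8 and 30.9 CPM in M2. Irf7, which sustains interferon production, averaged 2197 ± 345 CPM in M1 and 6.47 ± 0.891 CPM in M2. Irf5, linked to inflammatory macrophages, averaged 526 ± 38.4 CPM in M1 and 165 ± 5.37 CPM in M2. Irf4, a factor of IL-4-activated macrophages, had 1.08, 1.8, 1.79 and 2.39 CPM in M1, against 44.9, 46.8, 52.9 and 44.7 CPM in M2 (log2 difference -4.74 ± 0.13, SE). The groups did not overlap for any of these 4 genes, as for 56.8% of all genes tested. Among 31 genes of the JAK-STAT and SOCS families, 22 were higher in M1 and 7 in M2, and 17 and 12 with total counts only. Stat2, a subunit of the factor that type I interferon activates, averaged 527 ± 37.3 CPM in M1 and 25.3 ± 3.07 CPM in M2. The feedback inhibitors of cytokine receptors divided: Socs3 averaged 201 ± 23.7 CPM in M1 and 13.3 ± 0.577 CPM in M2 and Socs1 44 ± 6.4 CPM in M1 and 13.5 ± 1.61 CPM in M2, while Cish and Socs2, both STAT5 and STAT6 targets, averaged 3.25 ± 0.371 CPM in M1 and 28.7 ± 1.8 CPM in M2 for Cish and 1.16 ± 0.245 CPM in M1 and 6.86 ± 1.29 CPM in M2 for Socs2. The upstream components differed less. Stat6 had 215, 233, 216 and 201 CPM in M1, against 192, 201, 189 and 191 CPM in M2, and Il4ra, the IL-4 receptor chain, had 76, 88.3, 81.4 and 66.6 CPM in M1, against 60.4, 67.2, 63.7 and 62.5 CPM in M2. The lowest M1 library of Stat6 and its highest M2 library were both at 201 CPM, the groups overlapped for Il4ra, and the small differences, 0.16 for Stat6 and 0.30 for Il4ra, turned to -0.21 for Stat6 and -0.07 for Il4ra with total counts only. Ifngr1, the IFN-γ-binding receptor chain, was lower in M1, at 38.7 ± 5.65 CPM in M1 and 151 ± 5.67 CPM in M2.

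Toll-like receptor and NF-κB genes were mostly on the M1 side. Of 24 NF-κB subunits and feedback genes, 22 were higher in M1 and none in M2, with a median of 2.28. With total counts only, 19 were higher in M1 and 1 in M2. The inhibitors Nfkbie, at 188 ± 8.48 CPM in M1 and 8.45 ± 0.975 CPM in M2, and Nfkbiz, at 148 ± 5.83 CPM in M1 and 5.51 ± 0.448 CPM in M2, and the adaptor Traf1, at 254 ± 31.7 CPM in M1 and 4.01 ± 0.434 CPM in M2, had the widest gaps. Of 24 receptors and adaptors, 16 were higher in M1 and 6 in M2. Tlr2, a lipopeptide receptor, had 338, 317, 277 and 359 CPM in M1, against 10.2, 11.4, 9.79 and 12.4 CPM in M2. Tlr9, a DNA receptor, averaged 148 ± 19.4 CPM in M1 and 2.92 ± 0.31 CPM in M2. The LPS co-receptor Cd14 averaged 221 ± 25.8 CPM in M1 and 37.5 ± 1.73 CPM in M2. The receptor of LPS itself went the other way. Tlr4 had 45.5, 17.2, 45.5 and 42.5 CPM in M1, against 102, 94.5, 90.3 and 90.3 CPM in M2, and all 4 M1 libraries lay below all 4 M2 libraries. M1 replicate 2 was the lowest, and without it the log2 difference was -1.08, against -1.32 with it. Tlr8 was also lower in M1, at 55.2 ± 10.7 CPM in M1 and 180.0 ± 10.3 CPM in M2.

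Antigen presentation genes were higher in M1, for class I more evenly than for class II. Of 20 class I genes, 17 were higher in M1 and 2 in M2, both of them endoplasmic reticulum chaperones. Tap1, a subunit of the peptide transporter, had 1016, 1185, 1064 and 982 CPM in M1, against 29.2, 32.9, 29.5 and 31.9 CPM in M2. Nlrc5, the class I transactivator, averaged 452 ± 23.7 CPM in M1 and 18.5 ± 2.15 CPM in M2, and B2m, the light chain, averaged 6333 ± 174 CPM in M1 and 2666 ± 143 CPM in M2. Of 12 class II genes, 8 were higher in M1 and 3 in M2. Ciita, the class II transactivator, had 30.8, 29.6, 37.1 and 27 CPM in M1, against 2.8, 2.7, 2.86 and 3.52 CPM in M2. The class II chain gene H2-Ab1 averaged 166 ± 24.2 CPM in M1 and 22.4 ± 1.36 CPM in M2.

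The immunoproteasome, which ONX-0914 inhibits, was higher in M1 in these cells without inhibitor. All 7 genes of its subunits, the PA28 activator and the assembly chaperone were higher in M1, with a median of 2.6. Psmb8 had 361, 438, 342 and 346 CPM in M1, against 50.8, 50.2, 46 and 50.9 CPM in M2. Psmb9 averaged 229 ± 38.1 CPM in M1 and 19.6 ± 1.49 CPM in M2. Psmb10 differed less, at 534 ± 92.3 CPM in M1 and 213 ± 9.52 CPM in M2, with M0 at 62.9 ± 4.86 CPM, so that M2 also lay above M0. Psme2, a PA28 subunit, averaged 567 ± 33.5 CPM in M1 and 44.7 ± 6.6 CPM in M2, and its near copy Psme2b may share its reads. The 14 genes of the constitutive core were also all higher in M1, by less, with a median of 0.86 and 12 of them with total counts only. Psma5 averaged 195 ± 14.8 CPM in M1 and 52.3 ± 4.35 CPM in M2. Psmb5, the subunit that Psmb8 replaces, averaged 158 ± 23.1 CPM in M1 and 112 ± 5.06 CPM in M2, and its difference of 0.49 did not pass the test with total counts only.

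Genes of signals from the macrophage to T cells lay mostly on the M1 side, with stimulating and restraining members among them. Of 23 genes, 17 were higher in M1 and 6 in M2. Cd40, which receives help from T cells, had 1479, 1844, 1509 and 1416 CPM in M1, against 3.49, 4.45, 3.25 and 3.67 CPM in M2. Cd86, a ligand of CD28, averaged 295 ± 37 CPM in M1 and 6.24 ± 0.732 CPM in M2, and Cd80, its relative, 19.1 ± 1.98 CPM in M1 and 7.5 ± 0.646 CPM in M2. Icosl averaged 33 ± 3.92 CPM in M1 and 0.154 ± 0.111 CPM in M2, and Tnfsf4, the OX40 ligand, was at least 85.1-fold higher in M1, with 3.25, 2.15, 2.66 and 3.84 CPM there and no count in M2. Both ligands of the checkpoint receptor PD-1 were measured, one on each side. Cd274, the gene of PD-L1, had 2696, 2371, 2790.0 and 2546 CPM in M1, against 353, 322, 347 and 319.9 CPM in M2. Pdcd1lg2, the gene of PD-L2, whose promoter above holds the STAT6 spacing, had 0.955, 0.969, 1.79 and 0.63 CPM in M1, against 32.7, 36.3, 30.8 and 29.1 CPM in M2. Lgals9, a ligand of the checkpoint receptor TIM-3, and Cd47, which restrains uptake by phagocytes, were higher in M1, at 1006 ± 139.6 CPM in M1 and 51.1 ± 1.45 CPM in M2 for Lgals9 and 544 ± 37.8 CPM in M1 and 212 ± 4.49 CPM in M2 for Cd47. Lower in M1, like Pdcd1lg2, were the checkpoint genes Vsir, at 45.1 ± 2.94 CPM in M1 and 457 ± 11.4 CPM in M2, and Havcr2, at 2.4 ± 0.461 CPM in M1 and 26.1 ± 1.18 CPM in M2.

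Genes known from IL-4-activated macrophages lay mostly on the M2 side. Of 44 tested, 7 were higher in M1 and 35 in M2, or 4 and 37 with total counts only, against 34.4% of all genes higher in M2, with a median of -2.32. Chil3, a chitinase-like secreted protein, had 7.9, 6.64, 5.78 and 5.73 CPM in M1, against 1590.5, 1617, 1537 and 1503 CPM in M2 (log2 difference -7.91 ± 0.11, SE). Its near copy Chil4 had no count in M1 and 3.44, 3.6, 3.47 and 3.18 CPM in M2, and was at least 72.3-fold lower in M1, and reads may be split between the copies. Mrc1, the mannose receptor CD206, had 52.1, 45.5, 53.4 and 43.2 CPM in M1, against 519, 552, 518 and 480.2 CPM in M2. The lectins Mgl2 and Clec10a, which bind galactose-type sugars, averaged 0.176 ± 0.0653 CPM in M1 and 9.82 ± 1.19 CPM in M2 for Mgl2 and 0.131 ± 0.0938 CPM in M1 and 5.37 ± 0.828 CPM in M2 for Clec10a. Retnla, the secreted protein RELMα, had 0.509, 0.346, 0.404 and 1.38 CPM in M1, against 5.83, 5.95, 5.03 and 4.49 CPM in M2. Few reads covered it, and M1 replicate 4 was the highest of the M1 libraries: without it the log2 difference was -3.64, against -2.99 with it. Tmem26, a membrane protein gene with 2 STAT6-spaced motifs in the window above, had 2.36, 2.49, 1.96 and 2.83 CPM in M1, against 380.2, 401, 417 and 369 CPM in M2. Cdh1, the adhesion protein E-cadherin, had 2 counts in M1 and 12.5, 15.1, 14.3 and 11.7 CPM in M2. Its ratio of M2 to M1 was 425 (95% interval 117 to 3511).

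The 7 members of the IL-4 list higher in M1 were Ccl12, Ccl22, Ch25h, Tgm2, Plk2, Il4ra and Vegfa. A higher level in M1 does not tell whether IL-4 raised them. By mean CPM, Ccl12, Ccl22, Ch25h, Il4ra and Tgm2 were also higher in M2 than in M0, with Tgm2 at 473 in M2 and 99 in M0. Plk2, at 385 in M2 and 433 in M0, and Vegfa, at 53.7 in M2 and 96.6 in M0, were lower in M2. The chemokine genes Ccl12 and Ccl22 averaged 32.7 ± 2.89 CPM in M1 and 0.106 ± 0.102 CPM in M2 for Ccl12 and 23.3 ± 1.86 CPM in M1 and 4.21 ± 1.05 CPM in M2 for Ccl22, and Ch25h, which makes 25-hydroxycholesterol, averaged 97.2 ± 9.01 CPM in M1 and 8.01 ± 1.22 CPM in M2. Without M2 replicate 1 the fitted log2 difference of Ccl12 was 8.89, against 8.20 with it. Ccl17, a further chemokine of this class, had 7 counts in M1 and 27 in M2 and was not tested. Cd163, the haemoglobin scavenger receptor, had no count in M1 and 0.55, 0.3, 0.217 and 0.386 CPM in M2, at least 7.65-fold lower in M1. The growth factor gene Igf1 averaged 55.2 ± 4.66 CPM in M1 and 247 ± 2.29 CPM in M2, and Egr2, a factor of the late M2 programme, 34 ± 3.01 CPM in M1 and 189 ± 4.04 CPM in M2.

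Other genes far down in M1 and not part of the list included Col6a5, a collagen chain, at 0.341 ± 0.196 CPM in M1 and 49.4 ± 7.58 CPM in M2, and Rab3il1, a Rab exchange factor, at 7.06 ± 0.738 CPM in M1 and 312 ± 22.7 CPM in M2. Gpr183, the receptor of an oxysterol made from the Ch25h product, averaged 0.189 ± 0.0885 CPM in M1 and 12.1 ± 1.2 CPM in M2. Galnt9, a glycosyltransferase, averaged 0.145 ± 0.107 CPM in M1 and 17.3 ± 1.07 CPM in M2, and Cd28, a costimulatory receptor best known from T cells, 0.193 ± 0.0833 CPM in M1 and 12.5 ± 1.15 CPM in M2. For each of these 5 genes the highest M1 library lay below the lowest M2 library, which was a condition for naming genes outside the lists by their difference. Of the 5, Cd28 was higher in M0 than in M2, at 24.4 ± 2.1 CPM, whereas Col6a5 in M0 was at 0.216 ± 0.168 CPM.

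Uptake receptors stood on both sides. Of 18 C-type lectin receptors, 10 were higher in M1 and 8 in M2. Clec4e, the mycobacterial glycolipid receptor Mincle, had 4677, 2612, 4025 and 4456 CPM in M1, against 31.7, 37.9, 27.4 and 33.2 CPM in M2, and its low M1 library was replicate 2. Among Fc receptors, the high-affinity activating receptor Fcgr1 had 242, 345, 272 and 269.9 CPM in M1, against 8.58, 7.3, 8.62 and 8.1 CPM in M2. The inhibitory receptor Fcgr2b had 98.3, 98.3, 91.4 and 99.1 CPM in M1, against 932, 945, 938 and 924 CPM in M2. Complement factor Cfb averaged 44.9 ± 3.42 CPM in M1 and 0.178 ± 0.0654 CPM in M2. In all, 13 of 21 Fc receptor and complement genes were higher in M1 and 5 in M2, or 11 and 8 with total counts only. Of 22 scavenger and efferocytosis receptors, 9 were higher in M1 and 11 in M2, against 32.2% and 34.4% of all genes. Axl, which binds dying cells through a bridging protein, had 1339, 1413, 1417 and 1265 CPM in M1, against 57.5, 64.1, 64.4 and 58.5 CPM in M2. Its relative Mertk averaged 333 ± 28 CPM in M1 and 88.1 ± 2.21 CPM in M2, and Timd4, a phosphatidylserine receptor of resident macrophages, 10.3 ± 1.36 CPM in M1 and 0.295 ± 0.232 CPM in M2. The fatty acid and lipoprotein receptor Cd36 was lower in M1, at 1551, 782, 1425 and 1419 CPM in M1, against 3866, 3940.4, 3571 and 3686 CPM in M2, with M1 replicate 2 the lowest.

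Transcription factors were divided evenly, 17 of 41 higher in M1 and 18 in M2, or 14 and 22 with total counts only. All genes were split about as evenly, 32.2% and 34.4%. Batf2, a partner of IRF1, had 119, 156, 127 and 106 CPM in M1, against 1.74, 2.2, 1.78 and 1.74 CPM in M2. Its relative Batf3 had 0.891, 2.28, 1.33 and 1.38 CPM in M1, against 29.1, 30.0, 31.2 and 28.2 CPM in M2. The hypoxia-inducible factors parted in the same manner, with Hif1a at 594, 326, 628 and 524 CPM in M1, against 121, 122, 120.0 and 114 CPM in M2 and Epas1, the gene of HIF-2α, at 30.5, 32.2, 31.8 and 27.3 CPM in M1, against 434, 423, 469 and 441 CPM in M2. Pparg, a lipid-sensing nuclear receptor, had 3.31, 1.38, 2.08 and 1.83 CPM in M1, against 166, 154, 155 and 167 CPM in M2. Bhlhe40, which promotes macrophage proliferation in response to IL-4 in mice, averaged 92.8 ± 9.47 CPM in M1 and 586 ± 8.75 CPM in M2. Myc averaged 13.7 ± 1.92 CPM in M1 and 32.4 ± 2.98 CPM in M2. Gata6, the identity factor of resident peritoneal macrophages, averaged 11.6 ± 1.06 CPM in M1 and 30.2 ± 2.63 CPM in M2.

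Arachidonic acid metabolism was one of the lists most to the M2 side, with 6 of 21 genes higher in M1 and 15 in M2 and a median of -1.01. The M1 members were led by the inducible route to prostaglandin E2. Ptgs2, the inducible cyclooxygenase, had 977, 646, 941 and 902 CPM in M1, against 14, 15.9, 14.8 and 13.2 CPM in M2, and Ptges, the synthase that follows it, averaged 321 ± 40.7 CPM in M1 and 20.7 ± 1.03 CPM in M2. Ptgs1, the constitutive cyclooxygenase, had 26.4, 30.6, 27.5 and 26.3 CPM in M1, against 151, 154, 151 and 148 CPM in M2. Ptgir, the prostacyclin receptor, averaged 59.5 ± 5.13 CPM in M1 and 356 ± 7.45 CPM in M2. The plot of gene pairs shows 10 pairs of related genes picked because one member stood on each side. Over all genes, 32.2% were higher in M1 and 34.4% in M2, so opposite sides also arise among unrelated genes. How many related pairs lay on the same side was not counted. For Hif1a and Ptgs2 the lowest M1 library was replicate 2, still above every M2 library. The pairs were chosen after their values were seen.

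**Figure D3:**
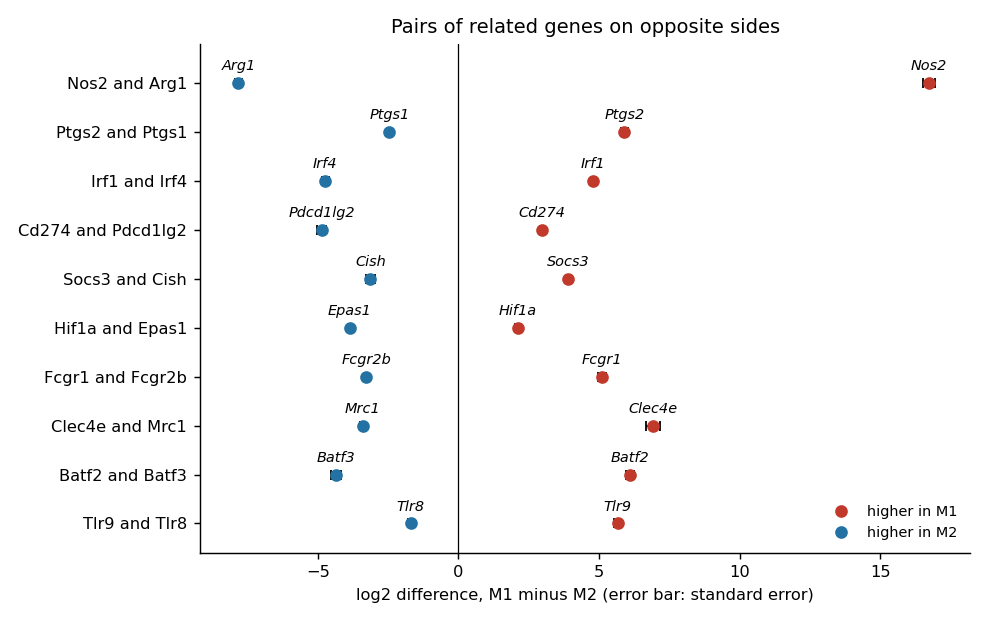
Log2 differences, M1 minus M2, with their standard errors for 10 pairs of related genes, picked because they stood on opposite sides. Red points were higher in M1 and blue points higher in M2, from Nos2 at 16.74, whose value rests on 1 count in M2, to Arg1 at -7.82, and the narrowest pair was Hif1a and Epas1, at 2.12 and -3.86.

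Glycolysis genes leaned to M1 by modest differences: 14 of 22 were higher in M1 and 3 in M2, with a median of 0.57, or 11 and 8 with total counts only. Slc2a6, a sugar transporter of lysosomes, and Slc16a3, the lactate exporter MCT4, had the widest gaps, at 894 ± 121 CPM in M1 and 41.8 ± 3.42 CPM in M2 for Slc2a6 and 159 ± 22.9 CPM in M1 and 31.9 ± 2.27 CPM in M2 for Slc16a3. Hk1 averaged 118 ± 16.7 CPM in M1 and 62.7 ± 3.85 CPM in M2, and Hk2, the inducible hexokinase, 255 ± 34.6 CPM in M1 and 152 ± 3.85 CPM in M2. Lower in M1 were Slc16a1, the transporter MCT1, at 15.6 ± 1.32 CPM in M1 and 40.5 ± 2.47 CPM in M2, and Pfkfb4, at 20.3 ± 2.86 CPM in M1 and 67.2 ± 2.5 CPM in M2. Genes of the tricarboxylic acid cycle and of linked reactions leaned the other way by small differences, with a median of -0.14 against -0.04 over all genes. Of 28, 5 were higher in M1 and 14 in M2, or 3 and 24 with total counts only, against 34.4% of all genes higher in M2. With a minimum difference of 1, the numbers were 1 and 3. Idh1, the cytosolic isocitrate dehydrogenase, had 30.4, 21.9, 28.4 and 28.1 CPM in M1, against 209.8, 203, 191 and 199 CPM in M2. Glul, glutamine synthetase, averaged 26.5 ± 1.45 CPM in M1 and 96 ± 2.3 CPM in M2.

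Fatty acid oxidation genes lay mostly on the M2 side, with a median of -0.57 against -0.04 over all genes. Of 20, 2 were higher in M1, or 1 without M1 replicate 2, and 15 in M2, against 34.4% of all genes. With total counts only the numbers were 1 and 19, and with a minimum difference of 1 they were 1 and 5. Hadh, an enzyme of the spiral, averaged 12.3 ± 1.29 CPM in M1 and 40.9 ± 4.04 CPM in M2. The members higher in M1 were Slc25a20, the carnitine carrier, and Acsl1, which activates long-chain fatty acids. Acsl1 had 698, 674, 674 and 657 CPM in M1, against 49.3, 51.5, 51.3 and 47.8 CPM in M2. Slc25a20 averaged 31.4 ± 2.89 CPM in M1 and 27 ± 1.56 CPM in M2, and its log2 difference of 0.22 did not pass the test without M1 replicate 2 or with only the 8 M1 and M2 libraries in the fit and turned to -0.15 with total counts only. Nuclear genes of the respiratory chain did not lean to a side: 8 of 31 were higher in M1 and 8 in M2. Without M2 replicate 3, 5 were higher in M1 and 10 in M2, and with total counts only 2 were higher in M1 and 24 in M2. Of 14 mitochondrially encoded genes, 1 was higher in M1, or 2 without M1 replicate 2, and 9 in M2, or 5 with only the 8 M1 and M2 libraries in the fit, and the M1 level rested in part on replicate 2. mt-Cytb had 825, 244, 815 and 806 CPM in M1, against 1442, 1442, 1409.6 and 1509 CPM in M2. mt-Nd2 had 589.6, 7.61, 568 and 572 CPM in M1, against 1016, 973, 972 and 1029.5 CPM in M2. For both, all M1 libraries lay below all M2 libraries, and without M1 replicate 2 the log2 differences were -0.83 for mt-Cytb and -0.79 for mt-Nd2, against -1.11 and -1.20 with it. The difference of mt-Nd2 did not pass the test with DESeq2 or with only the 8 M1 and M2 libraries in the fit. The list median without M1 replicate 2 was -0.54, against -0.88 with it. The ribosomal RNA gene mt-Rnr1 was the M1 member, at 546, 121, 466 and 555 CPM in M1, against 216, 204, 187 and 213 CPM in M2, and its replicate 2 lay below the M2 libraries. PolyA selection bears on such transcripts, and its part in these differences was not tested.

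Of 22 PPAR and LXR targets and lipid handling genes, 9 were higher in M1 and 10 in M2, or 7 and 13 with total counts only. Fabp4, a fatty acid carrier and PPARγ target, averaged 59.5 ± 3.32 CPM in M1 and 403 ± 17.5 CPM in M2, and Abca1, the cholesterol exporter, 177 ± 11 CPM in M1 and 58 ± 3.51 CPM in M2. Cholesterol synthesis genes were on the M1 side in 2 of 21 cases and on the M2 side in 10, or 1 and 19 with total counts only. Dhcr7, the enzyme of the last step to cholesterol, had 9.04, 12.5, 9.53 and 7.87 CPM in M1, against 127, 139, 133 and 138 CPM in M2, a wider gap than for any other member of the list.

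Genes of iron import and storage differed in direction. Tfrc, the transferrin receptor, which imports iron, had 45.4, 21.9, 43.8 and 40.2 CPM in M1, against 587, 563, 558 and 549 CPM in M2, with M0 at 78.1 ± 4.29 CPM. Fth1, the ferritin heavy chain, had 19133, 31402, 18423 and 19139 CPM in M1, against 6708, 6682, 6147 and 6919 CPM in M2, and M1 replicate 2 was the highest. Ftl1, the light chain, was lower in M1, at 2798 ± 306 CPM in M1 and 4199 ± 181 CPM in M2. Lcn2, which binds bacterial iron carriers, averaged 48.5 ± 8.57 CPM in M1 and 1.26 ± 0.198 CPM in M2. Of 19 iron genes, 10 were higher in M1 and 6 in M2. Among 23 genes of the NADPH oxidase and of antioxidant defence, 18 were higher in M1 and 3 in M2, or 14 and 5 with total counts only. Cybb, the catalytic subunit of the phagocyte oxidase, had 5159.7, 3665, 4983 and 4765 CPM in M1, against 494, 479, 465 and 471 CPM in M2. Sod2, the mitochondrial superoxide dismutase, averaged 1554 ± 84.3 CPM in M1 and 81.8 ± 2.81 CPM in M2, and the haem oxygenase Hmox1 649.7 ± 48.6 CPM in M1 and 324 ± 9.75 CPM in M2. The peroxide-removing enzymes Cat, at 77.3 ± 3.09 CPM in M1 and 117 ± 4.66 CPM in M2, and Gpx4, at 176 ± 19.6 CPM in M1 and 380.3 ± 21.4 CPM in M2, were lower in M1.

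Matrix proteases and their inhibitors were split, 14 of 25 higher in M1 and 11 in M2. Mmp14, a membrane-bound collagenase, had 1232, 1516, 1259.9 and 1216 CPM in M1, against 115, 124, 128 and 121 CPM in M2. Mmp12, the macrophage elastase, averaged 2873 ± 426 CPM in M1 and 7323 ± 233 CPM in M2, Mmp19 averaged 18.9 ± 2.25 CPM in M1 and 191 ± 3.66 CPM in M2, and the sheddase Adam8 averaged 155 ± 25.1 CPM in M1 and 1047 ± 85.8 CPM in M2. Of 22 growth and repair factors, 9 were higher in M1 and 12 in M2, or 6 and 13 with total counts only. Inhba, the activin A chain, had 417, 224, 437 and 415 CPM in M1, against 6.93, 6.25, 7.76 and 7.43 CPM in M2. Pdgfa averaged 8.13 ± 1.34 CPM in M1 and 57.4 ± 3.26 CPM in M2, and fibronectin Fn1 1389 ± 237 CPM in M1 and 2076 ± 193 CPM in M2.

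Endoplasmic reticulum folding genes stood mostly on the M2 side, with 3 of 20 higher in M1 and 15 in M2. Over all genes 34.4% were higher in M2. With total counts only the numbers were 1 and 18, and with a minimum difference of 1 they were 0 and 1. Pdia4, a disulphide isomerase, had 56.8, 61.1, 58.3 and 53.5 CPM in M1, against 305, 338, 309.7 and 282 CPM in M2, and M0 was near M1, at 71.5 ± 1.75 CPM. Ern1, the sensor IRE1, averaged 55.8 ± 2.87 CPM in M1 and 119 ± 5.31 CPM in M2. Hspa5, the chaperone BiP, was higher in M1, at 892 ± 17 CPM in M1 and 561 ± 24.7 CPM in M2. Of 20 genes of the amino acid stress response, 8 were higher in M1 and 5 in M2, or 5 and 11 with total counts only. Of 26 lysosomal genes, 8 were higher in M1 and 13 in M2, or 4 and 20 with total counts only. The proton pump subunit Atp6v0d2 had 587, 368, 542 and 555 CPM in M1, against 2229, 2122, 2000.0 and 2126 CPM in M2, and the acid lipase Lipa averaged 582 ± 49.3 CPM in M1 and 1852 ± 50.6 CPM in M2. The cathepsins Ctsl, at 3373 ± 275 CPM in M1 and 7621 ± 431 CPM in M2, and Ctsd, at 7962 ± 1409 CPM in M1 and 11064 ± 433 CPM in M2, were lower in M1.

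Genes of inflammasomes and cell death were higher in M1 in 22 of 28 cases and in M2 in 6. Nlrp3, an inflammasome sensor, had 284, 286, 258 and 264 CPM in M1, against 2.11, 1.4, 2.43 and 1.69 CPM in M2. Zbp1, a sensor of Z-form nucleic acid, averaged 737 ± 38 CPM in M1 and 12.2 ± 0.806 CPM in M2, and Il18bp, the decoy of IL-18, 215 ± 13.7 CPM in M1 and 5.08 ± 0.892 CPM in M2. Bcl2l11, the pro-apoptotic protein BIM, was lower in M1, at 9.72 ± 0.874 CPM in M1 and 57.9 ± 4 CPM in M2. Among 15 genes of purine signalling, 8 were higher in M1 and 3 in M2, or 4 and 6 with total counts only. Adora2a, an adenosine receptor, averaged 136 ± 25.9 CPM in M1 and 5.4 ± 0.728 CPM in M2, and P2ry1, an ADP receptor, 1.57 ± 0.467 CPM in M1 and 30.8 ± 1.36 CPM in M2. Of 10 genes of tryptophan, NAD and vitamin metabolism, 6 were higher in M1 and 2 in M2, or 1 in M2 when any one of M1 replicates 1, 3 and 4 or M2 replicates 1, 2 and 3 was left out and 4 in M2 with total counts only. The NAD-consuming ectoenzyme Cd38 had 358, 183, 329.7 and 335 CPM in M1, against 5.37, 7.05, 6.8 and 4.24 CPM in M2, and Nampt, which rebuilds NAD, averaged 1065 ± 237 CPM in M1 and 242 ± 6.62 CPM in M2. M1 replicate 2 was the lowest M1 library for Cd38, though far above M2.

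Of 33 cell cycle genes, 8 were higher in M1 and 16 in M2, against 32.2% and 34.4% of all genes. Differences were small, with a median of -0.32 against -0.04 over all genes. With total counts only, 6 were higher in M1 and 23 in M2, and with a minimum difference of 1, 5 and 1. The widest gaps were in regulators: Ccnd2, a D-type cyclin, averaged 73.1 ± 5.09 CPM in M1 and 4.52 ± 0.295 CPM in M2, Cdkn1a, the inhibitor p21, 453 ± 38.7 CPM in M1 and 90.7 ± 2.96 CPM in M2, and Cdkn2c, the inhibitor p18, 2.62 ± 0.458 CPM in M1 and 11.4 ± 1.17 CPM in M2.

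**Figure D4:**
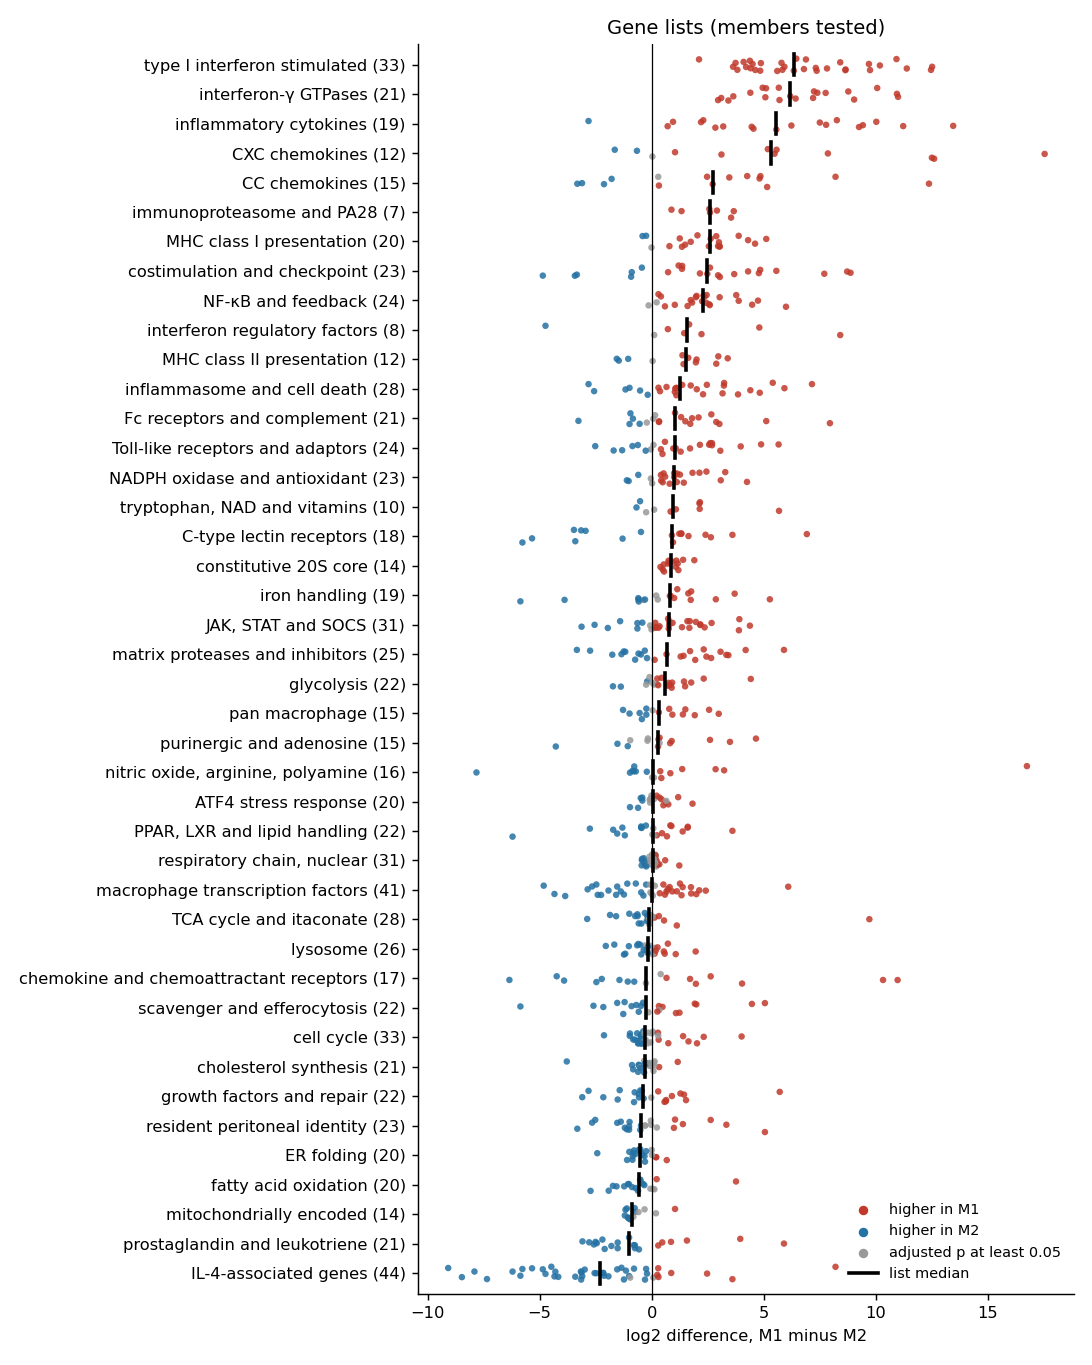
Log2 difference, M1 minus M2, of every tested member of 42 gene lists, with the number tested in parentheses and the list median as a black bar. Lists are ordered by median, from 6.34 for type I interferon-stimulated genes at the top to -2.32 for IL-4-associated genes at the bottom, and most lists in the middle hold members on both sides.

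The M0 libraries show how the 2 states lie around the control, which each is compared with through the same 4 libraries. Of the 1939 genes (13.2% of those tested) higher in M1 by a log2 difference of at least 1, 76.6% had an M0 mean within 1 of M2 only and 2.37% within 1 of M1 only. Of the 2033 genes (13.8%) higher in M2 by as much, 65.7% also had an M0 mean within 1 of M2 only, and 9% within 1 of M1 only. M0 thus lay near M2 for most genes on either side. Acod1 was an example on the M1 side, with M0 at 10.9 ± 2.26 CPM, and Idh1 on the M2 side, with M0 at 239.6 ± 9.21 CPM. Other M2 genes had M0 on the M1 side. Tmem26 was at 6.13 ± 0.453 CPM in M0, Chil3 at 6.05 ± 1.14 CPM, Irf4 at 2.53 ± 0.344 CPM and Pdcd1lg2 at 0.365 ± 0.0981 CPM, all nearer to M1. Pparg, at 68.4 ± 3.14 CPM, and Mrc1, at 121 ± 5.55 CPM, were between the states in M0. With a difference of 0.5 as the limit of nearness, the shares near M2 only were 69.7% for M1 genes and 56.8% for M2 genes.

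**Figure D5:**
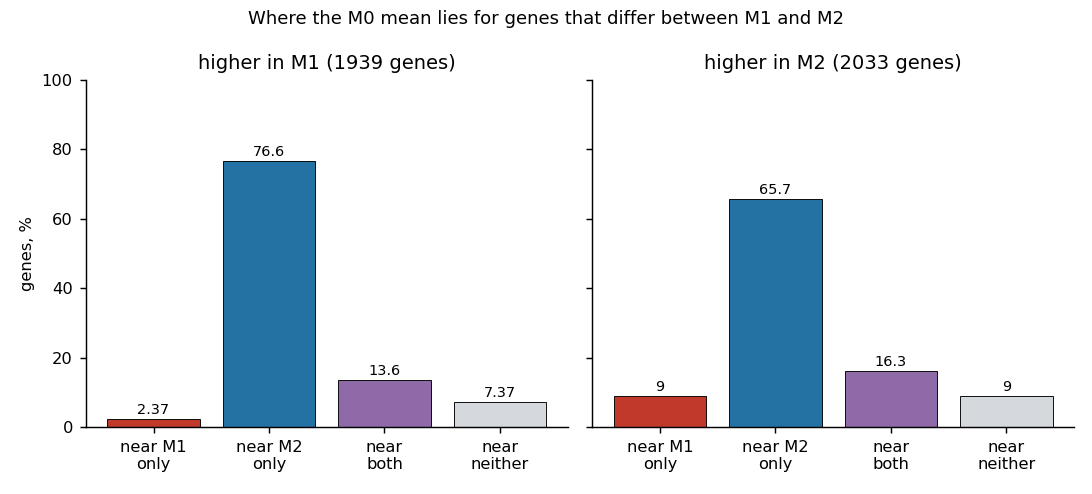
Percent of the genes higher in M1 (1939 genes) and of those higher in M2 (2033 genes), both by a log2 difference of at least 1, whose M0 mean lay within 1 of M1 only, of M2 only, of both or of neither. The bar for M2 only is the tallest in both panels, at 76.6% and 65.7%.

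Some neighbouring genes stood on the same side. Runs were of at least 5 tested protein-coding genes in a row, with genes of other types between them skipped. All genes of a run were called on one side with a log2 difference of at least 1. There were 18 runs for M1, holding 121 genes, and 4 for M2, holding 22. At that limit, 1939 genes of all types, not only protein-coding ones, were higher in M1 and 2033 in M2. How many runs would arise without any grouping was not tested. Positions are those of GENCODE M21 on GRCm38. The longest run held 14 genes on chromosome 1, from 173350879 to 174921819, 12 of them of the Ifi200 family. A run of 11 genes on chromosome 11, from 48861968 to 49135387, included the immunity-related GTPase Irgm1 and the near-identical Tgtp1 and Tgtp2, and 9 Trim genes lay together on chromosome 7, from 104218793 to 104507849. On chromosome 17, 7 genes from 35170991 to 35235792 surrounded Tnf, and 5 from 34153072 to 34216321 included Psmb9, Tap1 and Psmb8. On the M2 side the longest run held 7 genes on chromosome 3, from 79629079 to 82145789, and one of 5 genes on chromosome 1, from 190947646 to 191108945, ended with Batf3. Most M1 runs are families of related genes, whose reads the counting could share among members. With the limit at 0.5 there were 36 runs for M1 and 31 for M2, and without M1 replicate 2 there were 17 and 2.

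Markers of the macrophages' own identity shifted within the lists. Adgre1, the F4/80 antigen, averaged 633 ± 27.4 CPM in M1 and 241 ± 12.5 CPM in M2, and Csf1r, the receptor of the macrophage growth factor, 306 ± 33.4 CPM in M1 and 744 ± 22.9 CPM in M2. Of 23 genes of resident peritoneal identity, 6 were higher in M1 and 12 in M2, against 32.2% and 34.4% of all genes. Markers of other cells that such cultures could hold were counted as well. Of 11 tested B cell markers, 3 were higher in M1 and 2 in M2, or 1 and 2 with total counts only, and all 12 summed to 81.6 to 94.7 CPM in M1 and 117 to 126 CPM in M2. The 17 T and NK cell markers, of which 2 were tested and 1 was higher in M1, summed to 19.5 to 25.8 CPM in M1 and 3.18 to 4.25 CPM in M2, mostly the kinase gene Lck, at 19.2 ± 2.44 CPM in M1 and 1.67 ± 0.358 CPM in M2, with Ncr1 at 0. The 12 neutrophil markers, of which 4 were tested, with 2 higher in M1 and 2 in M2, summed to 141 to 161 CPM in M1 and 69.7 to 71.9 CPM in M2, mostly Csf3r, at 137 ± 11.5 CPM in M1 and 60.9 ± 1.72 CPM in M2, with S100a9, Ly6g and Retnlg at 0. The 11 mast cell and basophil markers, of which 4 were tested and 1 was higher in M1, summed to 21 to 32.5 CPM in M1 and 6.41 to 8.4 CPM in M2, mostly Hdc, at 23.1 ± 4.53 CPM in M1 and 4.49 ± 0.935 CPM in M2, with Mcpt8 at 0. The 6 eosinophil markers, of which 3 were tested and 2 were higher in M2 (1 without any one of M1 replicates 1 and 4 and M2 replicates 1, 3 and 4), summed to 8.72 to 9.25 CPM in M1 and 18 to 19.8 CPM in M2, mostly Siglecf, at 8.24 ± 0.217 CPM in M1 and 17.4 ± 1.12 CPM in M2, with Epx and Prg2 at 0. The 10 dendritic cell markers, of which 4 were tested and 3 were higher in M1, with 1 higher in M2 once M1 replicate 3 was left out or total counts only were used, summed to 9.51 to 13.3 CPM in M1 and 4.27 to 5.84 CPM in M2, with Siglech at 0 and Xcr1 at 0.919 ± 0.311 CPM in M1 and 0.0235 ± 0.0272 CPM in M2. Red cell markers summed to at most 0.382 CPM in M1 and 0.386 CPM in M2, and none was tested. Mesothelial and fibroblast markers summed to 1630.3 to 1910.3 CPM in M1 and 1025 to 1208 CPM in M2, and of their 12 members 4 were higher in M1 and 4 in M2, or 2 and 6 with total counts only. Most of the gap lay in Pdpn, also known from activated macrophages, at 885 ± 45.7 CPM in M1 and 225 ± 7.27 CPM in M2. The mesothelial markers Lrrn4 and Krt8 averaged 11.3 ± 1.5 CPM in M1 and 81.9 ± 5.17 CPM in M2 for Lrrn4 and 0.334 ± 0.0864 CPM in M1 and 3.61 ± 0.79 CPM in M2 for Krt8. The part of such cells in the collagen, Cxcl12 and matrix protease differences above was not tested.

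The same contrast was measured in 8 further libraries with ONX-0914 on both sides. There, 4349 genes (29.6%) were higher in M1 and 5327 (36.3%) in M2. Of the 9782 genes called without inhibitor, 8162 were called on the same side with it and 85 on the other. By the interaction term of edgeR's quasi-likelihood test, the difference itself changed for 1981 genes (13.5%). As M1 minus M2, sign included, it was larger with the inhibitor in 559 (3.8%) and smaller in 1422 (9.68%). A gap that narrowed in a gene higher in M2 thus counts as larger, and the numbers do not tell whether gaps narrowed or widened. Without M1 replicate 2 it changed for 2576 genes, larger in 766 and smaller in 1810. With DESeq2 size factors the numbers were 716 and 1110, and with only M1 and M2 libraries in the fit 885 and 647. The lean to smaller signed differences thus depends on the fit. Among genes at 10 CPM or more with a symbol that is not a clone name, the largest decreases were of Il12rb1, the IL-12 receptor chain, with 9.85 without and 6.86 with ONX-0914, and of Oas3, with 6.45 and 4.18. Isg20, Cst7 and Mlkl followed. The largest increases were of Cdh1, with -8.47 without and -4.66 with ONX-0914, where the first value rests on 2 counts in M1, and of Lhx2, with 5.10 without and 6.71 with the inhibitor. Tnfrsf26, Chac1 and Clec2i followed. Nos2, Arg1 and Tnf stayed on their sides, at 14.32, -7.86 and 9.84 with the inhibitor.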

How the data were processed

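RNA from pooled mouse peritoneal macrophages was sequenced in 24 libraries, 6 groups of 4. The authors deposited 1 table of raw counts per gene for 54532 features. Per the submitters' processing notes, FastQC 0.11.9, cutadapt 2.8, Bowtie2 2.2.5, Picard and the mm10 build were used. The sources used here give no counting program, strand setting or handling of reads that match several genes, so overlapping genes and near copies cannot be told apart, and values of near copies are uncertain. Gene symbols and positions came from GENCODE M21, which matched 54495 features.

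Counts were tested with edgeR 4.0.16 in R 4.3.3: TMM scaling, filterByExpr, a quasi-likelihood fit of the 6 group means to all 24 libraries, so that they share 1 estimate of the spread, and Benjamini-Hochberg adjustment over the 14692 genes tested, called under 0.05. Log2 differences are M1 minus M2. CPM values per library are TMM-scaled, ± is the SD over 4 libraries, and levels in CPM of different genes are not comparable because transcripts differ in length. A gene with no count in a group was set against 3 counts over the group. A ratio resting on 1 to 3 counts has an exact 95% interval, which covers counting error only.

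Named genes were the 12 largest log2 differences per side at 10 CPM or more with groups that did not overlap, the 10 largest differences in CPM per side, up to 3 called members per side of each of 50 gene lists, a set of textbook genes, and the 5 largest changes per side with ONX-0914. Some items of this rule and 1 motif are not reported here. Genes of runs and near copies, Odc1, Sms, Slc25a20, Lgals9, Cd47, Tgm2, Plk2 and Vegfa were named after their values were seen. Members and lists were chosen with earlier results of these data known. Alternatives were DESeq2 1.42.0, its size factors, total counts only, limma 3.58.1 with voom and sample weights, 2 other count filters, the M1 and M2 libraries alone, a replicate block, a minimum difference and each library left out. The fit was tested before use on simulated counts in which M1 equalled M2 except for genes changed by known folds. These counts lacked the wide difference and uneven load between M1 and M2 seen here, so the scaling under such conditions was not tested.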

Additional observations from a re-analysis of the deposited data

Results flagged for a closer look

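Of 376 sets of 4 libraries screened, 39 held a library whose gap to the nearest of the others was an unusually large part of the whole range, where chance flags about 1 set in 20. The far library was M1 replicate 2 in 26 of the 39. In that library the share of mitochondrial counts was low (gap over range 0.912) and the share of the 10 most counted genes was high (0.975).

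Among genes, M1 replicate 2 was the highest M1 library for H2-Ab1 (0.975), Ccl5 (0.963), Psmb9 (0.954), Adora2a and Fth1 (0.945 each), Tnf (0.906), Mcm2 (0.904), Psmb5 (0.897), Ptges (0.888), Ctsd (0.881), Lgals9 (0.863), Irf7 (0.861), Mmp14 (0.852), Slc2a6 (0.845) and Igf1 (0.832). It was the lowest for mt-Cytb (0.967), mt-Nd2 (0.963), Cd47 (0.925), Inhba (0.9), Tlr4 (0.893), Ifi213 (0.849), Nampt (0.844), Cd38 (0.84) and Cd36 (0.8292). The direction of every one of these genes was the same without it.

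Other libraries stood out for single genes. M1 replicate 3 was low for Fcgr2b (0.897) and high for Gbp10 (0.88) and Lck (0.846), and M1 replicate 4 was high for Retnla (0.843). M2 replicate 2 was high for Ftl1 (0.938), Batf2 (0.913) and Steap4 (0.865) and low for Gch1 (0.834). M2 replicate 3 was low for Ccl22 (0.944) and Psmb8 (0.86) and high for Pdgfa (0.892) and Fn1 (0.874), and M2 replicate 4 was high for Cd86 (0.899).

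The M1 minus M2 difference itself differed with ONX-0914 for 1981 genes by the interaction term of the fit. On the log2 scale, the change with the inhibitor was 3.8 for Cdh1, 1.61 for Lhx2, 1.57 for Tnfrsf26, 1.56 for Chac1 and 1.52 for Clec2i. It was -2.99 for Il12rb1, -2.28 for Oas3, -2.20 for Isg20 and for Cst7 and -2.03 for Mlkl.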

How the results depend on the processing

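Against 4730 genes higher in M1 and 5052 higher in M2, leaving out 1 library at a time gave 4598 to 4831 and 4850 to 5160. With total counts only the numbers were 2850 and 8221, with 25.7% of calls on the M1 side against 48.4%. A minimum log2 difference of 1 gave 1543 and 1292, and among members of the lists 298 and 115, against 454 and 285. Leaving out 1 library gave 449 to 458 and 277 to 297 list members. With total counts only, the signs of Il4ra (-0.07), Stat6 (-0.21) and Slc25a20 (-0.15) turned, and the cause of these changes in sign was not tested. With a limit of 0.5 there were 36 runs for M1 and 31 for M2, and without M1 replicate 2 there were 17 and 2. The same limit put M0 near M2 only for 69.7% and 56.8% of the genes. In 200-base windows, the interferon core was in 10.6% of those of M1 genes and 2.24% of all. The STAT6 spacing was in 4.2% of those of M1 genes and 3.42% of all.

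DESeq2, its size factors, voom, both other filters and the 8 libraries alone kept both counts within 1.5 times. With the replicate block, 4739 genes were higher in M1 and 5086 in M2, 457 and 284 list members were called, and 2046 genes changed their difference with ONX-0914. Same-numbered M1 and M2 libraries deviated together with correlations of 0.105, 0.0999, 0.0228 and 0.0015, and M1 replicates 3 and 4 correlated best with M2 replicate 1, so the numbers were not taken as pairs. Genes with under 10 CPM on both sides rest on few counts, and for those at 0 on one side only a bound can be given.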

Other observations

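Within families described above, further members showed the same split. Among lipid mediator genes, the prostaglandin receptor Ptger3 averaged 0.186 ± 0.152 CPM in M1 and 1.66 ± 0.181 CPM in M2, and Ltc4s, which makes leukotriene C4, averaged 0.14 ± 0.0917 CPM in M1 and 1.02 ± 0.315 CPM in M2. In fatty acid oxidation, Ppargc1a, a coactivator of mitochondrial biogenesis, averaged 0.171 ± 0.142 CPM in M1 and 1.19 ± 0.227 CPM in M2, and the thiolase Acaa2 11.2 ± 1.85 CPM in M1 and 42.4 ± 5.04 CPM in M2. The glycolytic enzyme Pfkl, liver-type phosphofructokinase, averaged 211 ± 36.4 CPM in M1 and 62.5 ± 4.39 CPM in M2. Sqle, a cholesterol synthesis enzyme, averaged 38.8 ± 3.02 CPM in M1 and 71.5 ± 3.23 CPM in M2.

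Iron genes higher in M1 also included Hpx, the haem carrier hemopexin, at 0.686 ± 0.32 CPM in M1 and 0.0467 ± 0.0542 CPM in M2, and Steap4, a metalloreductase, at 18.2 ± 2.15 CPM in M1 and 2.51 ± 0.729 CPM in M2. The lysosomal proteases divided, with Ctsc at 712 ± 34.7 CPM in M1 and 183 ± 4.97 CPM in M2 and Lgmn, legumain, at 882 ± 136 CPM in M1 and 2081 ± 67.6 CPM in M2. In the cell cycle, the D-type cyclin gene Ccnd3 averaged 52.1 ± 7.52 CPM in M1 and 12.9 ± 1.29 CPM in M2, while the replication genes Mcm2 and E2f1 averaged 12.6 ± 2.56 CPM in M1 and 24.9 ± 2.59 CPM in M2 for Mcm2 and 9.66 ± 2.02 CPM in M1 and 18.9 ± 0.648 CPM in M2 for E2f1. In each of these 13 genes the M1 and M2 libraries did not overlap, against 56.8% of all genes tested. The rule for list members names called genes with the widest differences, so this separation follows largely from the choice and is no further result.

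Of 653 processed pseudogenes tested, 165 were higher in M1 and 58 in M2, while of 12653 protein coding genes 4239 were higher in M1 and 4617 in M2. Of the 183 genes higher in M2 whose M0 mean lay within 1 of neither state, 84 had M0 above both.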
